A study of Mus musculus with 47 samples.

Results

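The immediate-early AP-1 and Egr genes were followed through 16 groups of dox-inducible C2C12 cultures. They are 10 genes of the 45650 gene symbols in the count tables, chosen by name: Fos, Fosb, Fosl1 and Fosl2 of the Fos family, Jun, Junb and Jund of the Jun family, and Egr1, Egr2 and Egr3. C2C12 is an immortalized mouse myoblast line. The iMyoD1 line has its endogenous MyoD1 and, in addition, a dox-inducible Halo-MyoD1 transgene. The population is polyclonal. The transgene was placed by PiggyBac transposition under a TRE3GS promoter, and only part of the nuclei respond to dox. It was sampled in growth medium (0 h, after 24 h of dox or vehicle) and after 24, 48 and 120 h of serum starvation with dox or vehicle given from its onset. Per the study's methods, growth medium was rich in fetal bovine serum. The starvation medium was not free of serum: it held a little horse serum, with insulin, transferrin and selenium added. At 120 h, cultures were trypsinized, triturated and passed over a 40 µm mesh into a myoblast-enriched fraction under 40 µm and a myotube-enriched fraction over 40 µm. C2C12 lines with inducible Cdh23 or inducible Mcam, both cell adhesion genes, were sampled at 48 h of starvation with dox or vehicle. Each group held 3 libraries, except that the myoblast-enriched fraction with dox held 2, for 47 in all. The vehicle groups are called no dox here.

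Fos and Jun proteins bind DNA as leucine zipper dimers known together as AP-1: Jun proteins pair with themselves or with Fos proteins, whereas Fos proteins need a Jun partner. Egr proteins are zinc finger factors that bind GC-rich sites. Most of these genes are transcribed within minutes of serum or growth factor stimulation, without new protein synthesis, through the serum response factor and its partners on CArG boxes and through CREB and AP-1 itself, and their mRNAs decay fast. In myoblasts, serum and AP-1 are known for their opposition to differentiation, and Jun is known to bind MyoD1 and restrain it.

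All positions are on GRCm38. Fos lies at chr12:85473890-85477273, Fosl2 at chr5:32135801-32157842, Egr2 at chr10:67535475-67542188 and Egr3 at chr14:70077203-70082614, each on the plus strand, and Fosb at chr7:19302696-19310051 on the minus strand. Fosl1 at chr19:5447547-5455946 (plus strand) overlaps Ccdc85b, Junb at chr8:84974484-84978718 (minus strand) overlaps Prdx2, Jun at chr4:95049034-95052222 (minus strand) overlaps the antisense gene Junos, and Jund at chr8:70698949-70700616 (plus strand) overlaps the antisense gene Gm11175. Each of these 4 partners lies on the opposite strand, and the sources used here do not say that strand was used in counting, so reads in the shared stretches are uncertain. Fosb, Fosl1, Jun, Junb, Jund and Egr3 were counted on 1 transcript each, whereas 83.8% of the Egr1 counts fell on the transcript Egr1-202 and 16.2% on Egr1-201.

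The start windows of the members are shown because MyoD1 binds E-boxes, of which CAGCTG is a known preferred form, and because serum acts on these genes through CArG boxes. RefSeq start windows (250 bases before to 50 after the start, GRCm38.p6) matched 7 of the 10 members. Fosl1, Egr1 and Egr3 had none. Each motif was searched on both strands. CAGCTG occurred in the windows of Fos, Junb and Jund, and in 16.3% of all 32851 windows. The Jund window (chr8:70697489-70697788) lies wholly before the Jund gene as placed above, and that of Fosl2 (chr5:32136222-32136521) within the gene. In the 250 bases before the Fos start (chr12:85473640-85473889, plus strand), capitals mark TATAAA (33 to 28 bases before the start) and CAGCTG (22 to 17 bases before it), and in those before the Junb start (chr8:84978749-84978998, minus strand) they mark CAGCTG (16 to 11 bases before it):
Fos: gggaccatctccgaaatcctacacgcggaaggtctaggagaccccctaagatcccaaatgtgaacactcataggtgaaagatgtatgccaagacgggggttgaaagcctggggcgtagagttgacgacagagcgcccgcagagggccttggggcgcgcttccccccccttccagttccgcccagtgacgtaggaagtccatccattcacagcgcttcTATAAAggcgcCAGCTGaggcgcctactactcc
Junb: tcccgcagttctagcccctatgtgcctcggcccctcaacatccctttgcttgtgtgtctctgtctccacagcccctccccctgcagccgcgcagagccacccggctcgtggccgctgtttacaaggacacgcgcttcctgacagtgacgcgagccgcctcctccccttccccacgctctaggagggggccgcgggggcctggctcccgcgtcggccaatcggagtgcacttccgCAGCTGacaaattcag
TATAAA, held by 13.6% of all windows, was also found in the Junb window, at bases 1 to 6 after the listed start. The Egr2 windows, 5 in number for its alternative starts, held 2 separate CArG boxes, a motif present in 1.63% of all windows. Each is shown in capitals with 30 bases in all, at chr10:67537484-67537513 and chr10:67537787-67537816 (plus strand):
Egr2 first box: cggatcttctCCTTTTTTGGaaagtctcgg
Egr2 second box: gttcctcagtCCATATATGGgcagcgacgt
Windows of Fosb and Fosl2 held an Egr site (GCGTGGGCG or GCGGGGGCG, 3.47% of all windows), which is shown in capitals for Fosb (chr7:19310076-19310105, minus strand):
Fosb: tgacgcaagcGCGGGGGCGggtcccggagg
CACGTG (7.15% of all windows) was found in 1 Egr2 window. TGANTCA (7.81%) and TGACGTCA (1.79%), the AP-1 and CREB sites, were not found in these letters in any of the matched windows, and none of the motifs searched was found in that of Jun. A match is a description of the letters and not a bound site.

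Library totals were between 15066338 and 50950674 counts, with a median of 22837926. The 35 libraries of 48 and 120 h carry a batch label that the 12 libraries of 0 and 24 h lack, so that the step from 24 to 48 h and the batch cannot be told apart. The 6 whole cultures at 120 h stood apart in base composition: genes with at least 65% GC took 0.0357% to 0.0614% of their counts, against 0.203% to 0.517% in the other 41 libraries, and Jund (67.2% GC), Junb (62.6%), Egr3 (62.2%) and Fosl1 (58.5%) are GC-rich. Changes of the members that involve these cultures are therefore also given with an offset for GC content, an alternative chosen after seeing the data. Ratios of means and shares within a family carry no such offset. The targeted genes were read beside the labels. Mcam was at 71.3 CPM with dox and 18.1 without in the iMcam line (log2 fold change 2.02, adjusted p = 0.000124). Mcam also rose with dox in the iCdh23 line, from 6.28 to 49.1 CPM (2.97, adjusted p = 1.26e-05). In the whole iMyoD1 cultures it rose by 1.29, 2.72, 0.91 and 4.14 at 0, 24, 48 and 120 h. A rise of Mcam with dox is therefore no check of the iMcam label. Cdh23 in the iCdh23 line was at 486 CPM with dox and 389 CPM without (0.32, adjusted p = 0.102). In the iMcam line it was at 51.2 CPM with dox and 7.73 CPM without (2.76, adjusted p = 0.00015). The comparison of dox with no dox in the iCdh23 line is therefore one of 2 groups that both had Cdh23 high. Myod1 in the iMyoD1 line was at 188 and 178 CPM at 0 h (0.09, adjusted p = 0.201). It went against the induction label later, being lower with dox at 24 h (-0.23, adjusted p = 0.00414), at 48 h (-0.36, adjusted p = 0.000447) and in the whole cultures at 120 h (-1.62, adjusted p = 1.32e-05). Whether the transgenes were in the counting reference is not stated, so these values do not check the induction of Halo-MyoD1. Summed markers of leukocytes, endothelial cells and adipocytes reached at most 4.04, 0.929 and 0.250 CPM in any library. Myoblast markers (Myod1, Myf5, Des, Cdh15 and Itga7) summed to at least 384 CPM in each of the 47. No dox-treated parental line was analysed here, so effects of dox itself and of a transgene cannot be told apart within 1 line. In bulk RNA, fewer cells of a type and less RNA per cell also cannot be told apart.

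Levels between genes were compared per transcript length, as TPM, a length-scaled level that sums to the same total in each library. The Fos family was led by Fosl2, whose product Fra-2 is a Fos protein without a strong activation domain, in each of the 16 groups. At 0 h without dox, Fosl2 made up 49.4% ± 2.54 (SD, n = 3) of the summed Fos family TPM and Fosl1, which encodes the related Fra-1, 44.05% ± 1.25. Fos stood at 5.13% ± 1.78 and Fosb at 1.47% ± 0.344. With dox, Fosl1 stood at 27.9% ± 1.73. In the whole cultures at 120 h, which stood apart in base composition, the share of Fosl1 was 2.34% ± 0.709 without and 2.71% ± 0.754 with dox. The same share stood at 30.9% ± 6.72 without and 6.88% ± 1.99 with dox in the iCdh23 line, and at 30.9% ± 1.41 and 9.82% ± 1.65 in the iMcam line. Among the Jun genes without dox, Junb, a weaker activator than Jun, led at 0 h with 64.4% ± 0.593 of TPM and at 48 h with 58.1% ± 0.711, and Jund, the member least dependent on serum, led at 24 h with 53.4% ± 0.941. At 48 h with dox the order was turned, with Jund at 51.5% ± 1.96 and Junb at 37.3% ± 0.862. Egr1 made up between 77.4% and 93.8% of the summed Egr TPM in every group. These shares are descriptions, with no test.

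**Figure D1:**
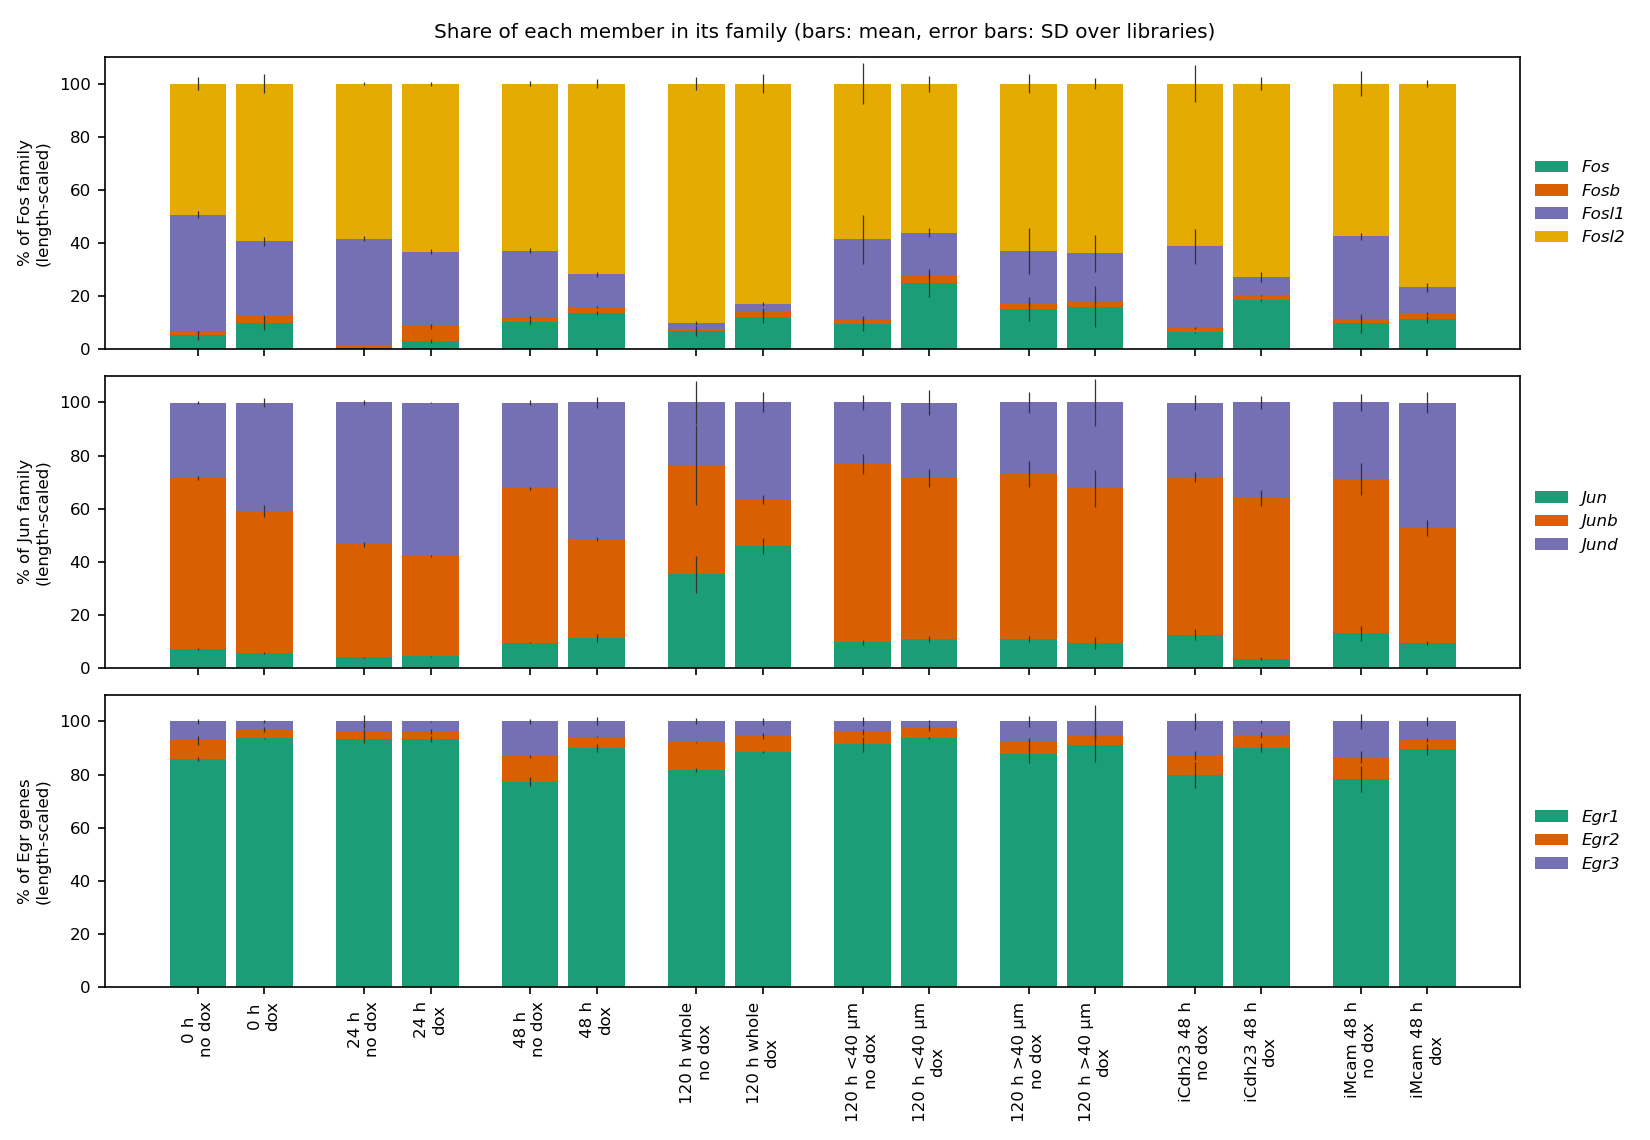
Share of each member in the summed length-scaled level (TPM) of its family, in percent, for the 16 groups; bars are means over libraries and error bars SD. Fosl2 leads the Fos family and Egr1 the Egr genes in every group, while the share of Fosl1 is smaller with dox at 0 h (44.0% to 27.9%) and in the iCdh23 (30.9% to 6.88%) and iMcam lines (30.9% to 9.82%), but not in the whole cultures at 120 h (2.34% to 2.71%).

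Ordered by mean CPM over the 16 groups, the members fell into unlike patterns. Fos, Fosb, Egr1, Egr2 and Egr3 had their lowest mean at 24 h without dox, Fosl2 at 24 h with dox, and Fosl1, Jun, Junb and Jund in the whole cultures at 120 h with dox. Between the highest and the lowest group, the ratio of means was 106 for Junb, 66.3 for Egr2, 54.8 for Egr3, 35.1 for Fos, 28.6 for Jund, 27.7 for Fosl1, 24.6 for Egr1, 6.38 for Jun, 5.03 for Fosl2 and 3.32 for Fosb. For Junb, Jund, Fosl1 and Jun the lowest group is among the whole cultures at 120 h that stood apart in base composition, so their ratios are not comparable with the others. The ratio of Fosl2 rests on these cultures too, since its highest group was the one without dox. The GC offset took the change between the myoblast-enriched fraction and these cultures without dox from 3.995 to 2.62 for Junb and from 3.52 to 0.85 for Jund. Most neighbours in these orders could not be separated: of 15 neighbouring pairs of groups, the libraries overlapped in 15 for Fosb, 13 for Fos and Egr3, 12 for Egr2, 11 for Fosl2 and Egr1, 10 for Fosl1, 9 for Junb and Jund and 8 for Jun.

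**Figure D2:**
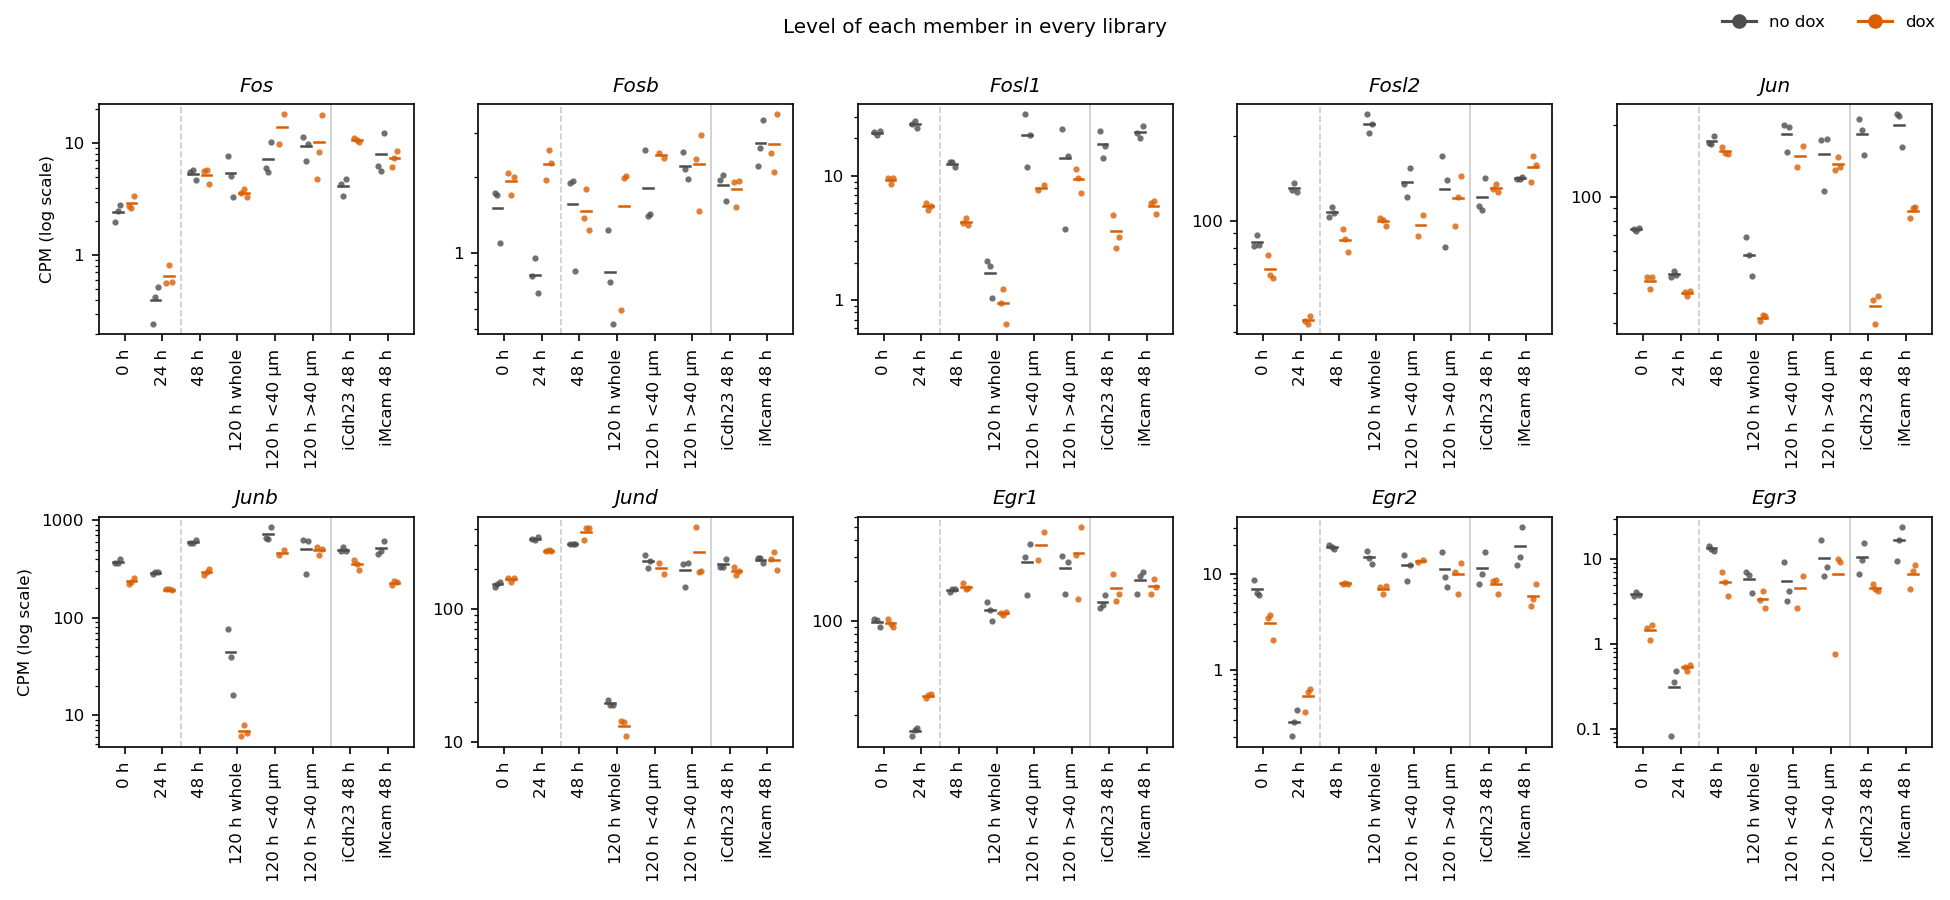
Level of each member in CPM (log scale) in every library, by group, without dox (grey) and with dox (orange); short lines are group means, the dashed line separates the libraries without and with the batch label, and the solid line separates iMyoD1 from the adhesion lines. Fos and the Egr genes dip at 24 h, Fosl1 is lower with dox in each of the 8 pairs of groups, and Junb and Jund are low in the whole cultures at 120 h.

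The first question was how the members move when serum is reduced without dox. Over the first 24 h the Egr genes and Fos fell. Egr1, the most abundant Egr member, went from 104, 101 and 90.1 CPM to 13.8, 15.4 and 15.9 CPM in the 3 libraries of each time, a log2 fold change (edgeR's quasi-likelihood test, standard error after the sign) of -2.67 ± 0.0798, adjusted p = 2.99e-12. Egr2, which encodes Krox20, went from 8.54, 6.25 and 5.99 CPM to 0.203, 0.284 and 0.381 CPM (-4.50 ± 0.269, adjusted p = 2.83e-09). Egr3 went from 3.65, 4.15 and 3.74 CPM to 0.0812, 0.355 and 0.485 CPM (-3.55 ± 0.362, adjusted p = 7.61e-07). Fos, the founding AP-1 member, went from 1.97, 2.50 and 2.79 CPM to 0.244, 0.426 and 0.519 CPM (-2.55 ± 0.326, adjusted p = 7.46e-06). None of these 4 genes had overlapping libraries between the times, but at 24 h Egr2 rested on 5, 8 and 11 counts and Egr3 on 2, 10 and 14. Jund moved the other way, from 147, 154 and 160.0 CPM to 335, 329 and 345 CPM (1.17 ± 0.0561, adjusted p = 2.8e-10).

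In all, 5 of the 10 members were called between 0 and 24 h without dox (an adjusted p under 0.05 and a change over 2-fold; 1 higher, 4 lower), where 26.1% of 13632 genes tested were called. Each of the other 5 had an adjusted p under 0.05 with a change under 2-fold: Fosl2 at 0.67 ± 0.0605, Fosl1 at 0.26 ± 0.0762, Junb at -0.34 ± 0.0579, Jun at -0.58 ± 0.0571 and Fosb at -0.83 ± 0.308. At the adjusted p alone 74.3% of all genes passed in this step. The members' median log2 fold change was -0.71, against 0.014 over all genes tested. With dox, 4 members were called, each lower (Fos -2.18 ± 0.260, Egr1 -1.79 ± 0.0629, Egr2 -2.52 ± 0.308 and Egr3 -1.44 ± 0.293), where 16.8% of 13943 genes were called. Jund then changed by 0.72 ± 0.0518 (adjusted p = 4.6e-08), under the 2-fold limit. The adjusted p alone was passed by 9 members with dox, and by 68% of all genes.

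By 48 h the genes that had fallen stood higher again. Without dox, Egr1 was at 164, 172 and 172 CPM (3.50 ± 0.0709, adjusted p = 5.76e-14 against 24 h). Egr2 was at 19.8, 19.1 and 17.9 CPM (5.99 ± 0.181, adjusted p = 3.34e-12), and Egr3 at 14.3, 13.2 and 12.7 CPM (5.38 ± 0.265, adjusted p = 5.65e-10). Fos was at 5.46, 5.73 and 4.64 CPM (3.70 ± 0.263, adjusted p = 2.57e-08). Jun was at 169, 167 and 180.0 CPM, after 46.8, 49.4 and 47.5 CPM at 24 h (1.85 ± 0.0609, adjusted p = 8.21e-12). Each of these 5 was higher in every 48 h library than in any 24 h library. Junb also rose (1.04 ± 0.0586, 0.50 with the GC offset) and Fosl1 fell (-1.05 ± 0.0859). This made 7 members called (6 higher, 1 lower) where 30.4% of 14017 genes were called. With dox 5 were called, all higher (Fos 3.02 ± 0.214, Jun 1.94 ± 0.0612, Egr1 2.67 ± 0.0712, Egr2 3.86 ± 0.191, Egr3 3.33 ± 0.266), against 28.8% of 14953. The members' medians were 1.45 without and 1.44 with dox, against -0.021 and 0.007 over all genes. The adjusted p alone was passed by 10 members without and 10 with dox, and by 76.8% and 72.4% of all genes. Without dox, proliferation markers (Mki67, Top2a, Ccnb1 and Cdk1) summed to between 2017 and 2036 CPM at 0 h, 522 and 572 CPM at 24 h and 858 and 875 CPM at 48 h. Myotube markers (Myog, Mymk, Mymx, Myh3, Ckm, Acta1, Tnnt3 and Mylpf) summed to at most 2.00 CPM at 0 h, between 13.04 and 14.72 CPM at 24 h and between 13990 and 15380 CPM at 48 h. The part of these shifts in the members' changes over time was not tested. The step from 24 to 48 h also crosses the batch label, and consecutive steps share the libraries of the group between them.

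From 48 to 120 h, the whole cultures without dox had 6 members called (1 higher, 5 lower) where 29.8% of 13785 genes were called, and those with dox 4 (each lower) where 36.4% of 14166 were. The adjusted p alone was passed by 8 members without and 8 with dox, and by 67.1% and 73.5% of all genes. The median log2 fold change of genes with at least 65% GC over the same step was -3.32 without and -4.01 with dox, against 0.47 and 0.75 below 40% GC. Junb, at 590.5, 579 and 622 CPM at 48 h, was at 76.8, 39.04 and 16.2 CPM at 120 h (-3.75 ± 0.449, adjusted p = 7.95e-05), which became -2.27 with the GC offset. Jund went from 307, 306 and 306 CPM to 20.5, 19.1 and 18.9 CPM (-3.96 ± 0.0831, adjusted p = 1.9e-08, -1.27 with the offset). Jun (-1.55 ± 0.126, -1.23 with the offset) and Fosl1 (-2.88 ± 0.225, -2.13 with the offset) were called in both fits without dox. With dox, Junb changed by -5.43, Jund by -4.83 and Jun by -2.295, and each of them stayed lower and called with the offset. Fosl1 with dox went from -2.17 to -0.95 with the offset, under 2-fold, so that its call was lost. The change of Egr3 was -1.18 ± 0.202, adjusted p = 0.000706, but turned to 0.31 (adjusted p = 0.0509) with the offset. With dox it went from -0.68 to 1.40 (adjusted p = 0.000667) with the offset, so that the calls with dox were then not all lower. No direction is therefore given for it. Fosl2, at 53.1% GC, was the member that rose: it went from 103, 112 and 106 CPM to 239, 205 and 220.3 CPM without dox (1.07 ± 0.0844, adjusted p = 6.97e-06, 1.16 with the offset). Proliferation markers summed to 858 to 875 CPM at 48 h and 183 to 215 CPM at 120 h without dox. With dox they were at 247 to 268 CPM at 48 h and 358 to 427 CPM at 120 h. Myotube sums overlapped without dox and were at 5738 to 5980 and 8331 to 10210 CPM with dox. The part of base composition in these changes was not tested beyond this offset, and that of the marker shifts was not tested.

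**Figure D3:**
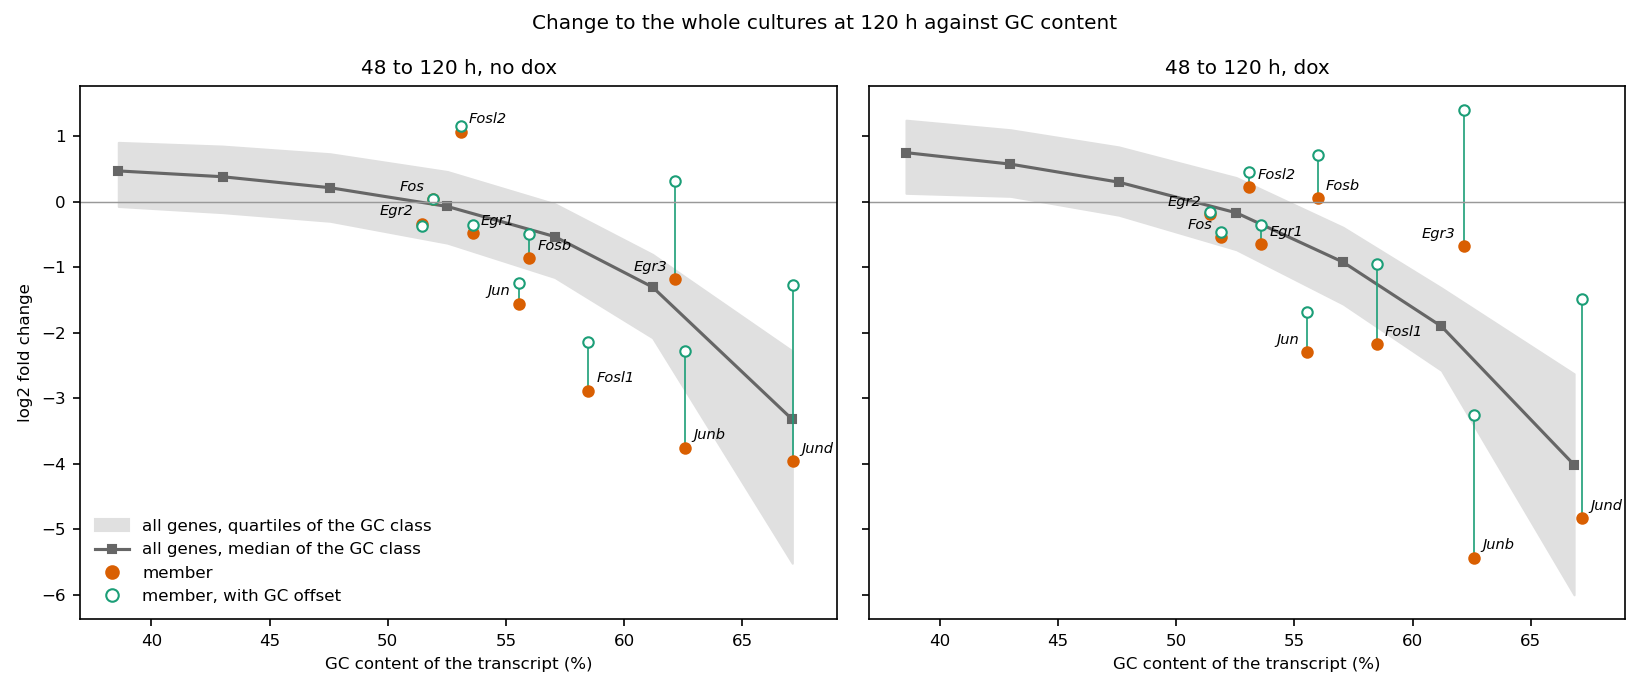
log2 fold change from 48 to 120 h in whole cultures against the GC content of the transcript (%), without dox (left) and with dox (right); the line and band are the median and quartiles of all genes tested in 7 classes of GC content, filled points the 10 members and open points the members with the GC offset. Junb and Jund move from -3.75 and -3.96 to -2.27 and -1.27 without dox, Egr3 changes sign, and Fosl2 stays above 0.

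The second question was what dox, and with it the MyoD1 transgene, changes in the iMyoD1 line. Over its 6 comparisons of dox with no dox, 12 of the 60 member tests were called lower and 1 higher. Of the 83488 tests of all genes in these comparisons, 4.24% were called lower and 4.21% higher. The comparisons share no libraries, though both fractions came from the same strained cultures. In the adhesion lines, which carry no MyoD1 transgene, 8 of 20 member tests were lower and 1 higher, and of the 27958 tests of all genes 13.5% and 10.1%. Fosl1 was the member called in the most comparisons: its fitted change was below 0 in all 6 of the iMyoD1 line and in both adhesion lines, and it was called in 5 of these 8. At 0 h it stood at 22.6, 21.4 and 22.9 CPM without and 9.69, 8.57 and 9.68 CPM with dox (-1.25 ± 0.0907, adjusted p = 2.36e-07, 2.38-fold lower). At 24 h the values were 26.3, 27.5 and 24.4 CPM and 6.02, 5.36 and 5.75 CPM (-2.21 ± 0.0880, adjusted p = 1.87e-09, 4.64-fold lower). At 48 h they were 12.8, 12.9 and 11.9 CPM and 4.21, 4.56 and 4.03 CPM (-1.56 ± 0.110, adjusted p = 8.74e-07, 2.96-fold lower). The groups did not overlap at any of these times, and each call stood with any 1 library left out. In the whole cultures at 120 h, Fosl1 was at 2.07, 1.90 and 1.05 CPM and 0.949, 1.23 and 0.646 CPM, and the difference did not pass (-0.84 ± 0.432, adjusted p = 0.143, -0.55 with the GC offset).

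Fosl2 changed with dox most at 24 h, where it stood at 128, 136 and 126 CPM without and 43.9, 42.7 and 45.6 CPM with dox (-1.59 ± 0.0536, adjusted p = 5.57e-10). At 0 h (-0.31 ± 0.0746, adjusted p = 0.00505) and 48 h (-0.34 ± 0.0762, adjusted p = 0.00321) it was lower by less than 2-fold. At 120 h it was at 239, 205 and 220.3 CPM and 102, 100.2 and 95.8 CPM (-1.17 ± 0.0872, adjusted p = 1.03e-05, -1.11 with the GC offset). Fosb, a low member in every group, was the 1 member called higher in the iMyoD1 line: at 24 h it was at 0.812, 0.958 and 0.693 CPM without and 1.94, 2.55 and 2.27 CPM with dox (1.42 ± 0.234, adjusted p = 0.000208). Fos itself did not pass in the whole iMyoD1 cultures, with 0.26 ± 0.232 at 0 h, 0.64 ± 0.385 at 24 h, -0.018 ± 0.156 at 48 h and -0.60 ± 0.311 at 120 h (-0.57 with the GC offset). At 24 h the 3 dox libraries of Fos, at 0.562, 0.814 and 0.572 CPM, nevertheless lay above the 3 without dox.

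Of the Jun genes, Junb was lower with dox at all 4 times in whole cultures and its groups never overlapped. It was at 367, 366 and 399 CPM without and 219, 233 and 256 CPM with dox at 0 h (-0.67 ± 0.0634, adjusted p = 2.53e-06). At 24 h it was at 280.4, 297 and 296 CPM and 196, 195 and 191 CPM (-0.61 ± 0.0525, adjusted p = 9.37e-07). At 48 h it was at 590.5, 579 and 622 CPM and 272, 298 and 317 CPM (-1.03 ± 0.0752, adjusted p = 1.13e-06). This was a change just over 2-fold that fell to -0.999 without the no dox replicate 3 and to -0.97 without the dox replicate 1. At 120 h it was at 6.05, 7.87 and 6.54 CPM with dox (-2.70 ± 0.467, adjusted p = 0.00143, -2.23 with the GC offset). Jun was lower by less than 2-fold at 0 h (-0.70 ± 0.0635, adjusted p = 1.61e-06), 24 h (-0.29 ± 0.0524, adjusted p = 0.000454) and 120 h (-0.89 ± 0.139, adjusted p = 0.000836, -0.72 with the GC offset). At 48 h its change did not pass (-0.16 ± 0.0629, adjusted p = 0.0529). The change of Jun at 120 h was called, at -1.02, without the no dox replicate 3. Jund stayed within 2-fold in each comparison, lower at 24 h (-0.32 ± 0.0519, adjusted p = 0.000166) and at 120 h (-0.58 ± 0.146, adjusted p = 0.0104, -0.19 with the GC offset) and higher at 48 h (0.28 ± 0.0832, adjusted p = 0.0138, 0.034 with the GC offset).

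The Egr genes were not alike. Egr1 was at 104, 101 and 90.1 CPM without and 103, 95.04 and 90.7 CPM with dox at 0 h (-0.021 ± 0.0682, adjusted p = 0.837). At 48 h it was at 164, 172 and 172 CPM and 192, 172 and 176 CPM (0.071 ± 0.0668, adjusted p = 0.388). Its groups overlapped at both times. At 24 h, when it was low, it was higher with dox, at 26.7, 27.9 and 28.6 CPM against 13.8, 15.4 and 15.9 CPM (0.85 ± 0.0774, adjusted p = 1.46e-06). Egr2 was lower with dox at 0 h, with 8.54, 6.25 and 5.99 CPM and 3.48, 3.68 and 2.05 CPM (-1.15 ± 0.223, adjusted p = 0.00108). It was lower also at 48 h, with 19.8, 19.1 and 17.9 CPM and 7.89, 8.07 and 7.87 CPM (-1.26 ± 0.0892, adjusted p = 8.82e-07). Its call at 0 h was lost without the dox replicate 3 (-0.94) and without the no dox replicate 1 (-0.98), by the 2-fold limit alone. At 120 h Egr2 was at 17.2, 14.7 and 12.5 CPM and 7.19, 6.16 and 7.43 CPM (-1.11 ± 0.173, adjusted p = 0.000826, -1.10 with the GC offset), a call lost without the no dox replicate 1 (-0.99). Egr3 had 3.65, 4.15 and 3.74 CPM and 1.56, 1.11 and 1.70 CPM at 0 h (-1.39 ± 0.240, adjusted p = 0.000467). At 48 h it had 14.3, 13.2 and 12.7 CPM and 7.05, 5.45 and 3.69 CPM (-1.29 ± 0.183, adjusted p = 0.000144). At 120 h it was at 7.04, 6.47 and 3.95 CPM and 3.32, 4.22 and 2.67 CPM, lower by less than 2-fold (-0.79 ± 0.288, adjusted p = 0.0497, -0.43 with the GC offset) and called, at -1.01, without the no dox replicate 3. Egr1 at 120 h did not pass (-0.089 ± 0.114, adjusted p = 0.556, -0.012 with the GC offset).

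The counts of members called with dox were 3 at 0 h (each lower), 3 at 24 h (1 higher, 2 lower), 4 at 48 h (each lower) and 3 in the whole cultures at 120 h (each lower). The share of all genes tested that were called was 4.27% at 0 h, 13.2% at 24 h, 14.4% at 48 h and 16.1% at 120 h. The adjusted p alone was passed by 6, 7, 6 and 6 members in that order, and by 37.8%, 62.8%, 56.6% and 45.2% of all genes. The members' median log2 fold changes were -0.49, 0.18, -0.25 and -0.81, while those of all genes were 0.0004, -0.0024, 0.011 and -0.0012. With dox at 48 h, proliferation markers summed to between 247 and 268 CPM and myotube markers to between 5738 and 5980 CPM, both below the sums without dox. Myoblast markers were at 2153 to 2288 CPM with dox and 3271 to 3518 CPM without. At 0 h, proliferation markers were at 1769 to 1826 CPM with dox and 2017 to 2036 without, and myoblast markers at 897.5 to 918 and 753 to 780. At 24 h, myoblast markers were at 514 to 523 CPM with dox and 437 to 457 without, and the proliferation and myotube sums overlapped. In the whole cultures at 120 h, proliferation markers summed to between 358 and 427 CPM with dox and 183 and 215 CPM without. Myotube markers there were at 8331 to 10210 CPM with dox and 10870 to 15400 without, and myoblast markers at 1220 to 1596 and 2113 to 3863. The part of such shifts in the members' changes was not tested.

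**Figure D4:**
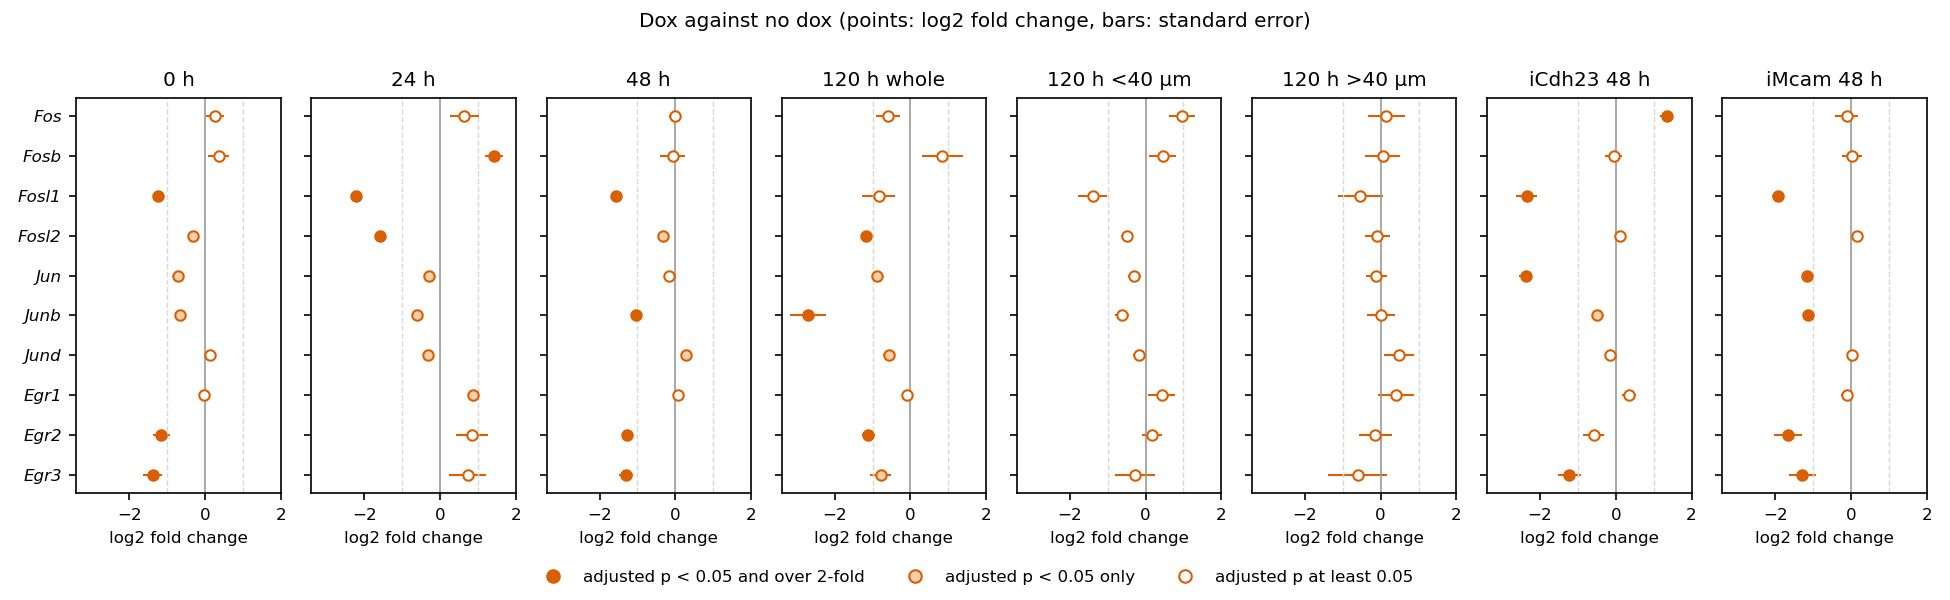
log2 fold change of dox against no dox for the 10 members in the 8 comparisons, with standard errors as bars; filled points passed an adjusted p of 0.05 and a 2-fold change, pale points the adjusted p alone, and dashed lines mark 2-fold. Fosl1 lies left of 0 in every panel, Egr1 has no filled point, and Jun stands at -2.38 in the iCdh23 line.

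Whether the dox effect at 24 h differed from that at 0 h was tested as an interaction. It differed for 8 of the 10 members, with an adjusted p under 0.05, where 34.1% of 14448 genes tested passed. Fosl2 (-1.33 ± 0.0959, adjusted p = 2.27e-08) and Fosl1 (-1.01 ± 0.119, adjusted p = 5.18e-06) were lowered more at 24 h. Egr1 (0.83 ± 0.103, adjusted p = 9.59e-06), Egr2 (1.94 ± 0.453, adjusted p = 0.00295) and Egr3 (2.06 ± 0.507, adjusted p = 0.00429) shifted upward, from lower or unmoved at 0 h to higher fitted values at 24 h. The 24 h values of Egr2 and Egr3 rest on few counts, and their own change at 24 h did not pass (0.83 ± 0.421, adjusted p = 0.105 and 0.73 ± 0.480, adjusted p = 0.208). Jund (-0.50 ± 0.0719, adjusted p = 3.96e-05), Jun (0.37 ± 0.0797, adjusted p = 0.00166) and Fosb (1.01 ± 0.356, adjusted p = 0.0362) also passed. That of Fosb was lost, with changes from 0.90 to 1.01, without any 1 of 7 of the 12 libraries, and with no low-count filter (1.03, adjusted p = 0.0664). Fos (0.33 ± 0.419, adjusted p = 0.587) and Junb (0.011 ± 0.0854, adjusted p = 0.939) did not pass. Cultures at 0 h were in growth medium and those at 24 h in the starvation medium, with less serum of another kind and added insulin. Those at 0 h were also seeded with fewer cells, so these differences cannot be told apart.

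The fractions were compared with each other and with the undivided cultures. No member was called between the myotube-enriched and the myoblast-enriched fraction, either without dox (0 of 10, against 0.585% of 14023 genes) or with dox (0 of 10, against 0% of 14291, where 182 genes had an unadjusted p under 0.05 by edgeR). Myotube markers summed to between 13490 and 23130 CPM in the myotube-enriched and between 6350 and 10360 CPM in the myoblast-enriched fraction without dox. Dox called 0 members in the myoblast-enriched fraction (against 3.03% of 14249 genes) and 0 in the myotube-enriched fraction (against 0% of 14113, where 79 genes had an unadjusted p under 0.05 by edgeR). Fosl1 was at 31.2, 11.9 and 21.2 CPM without and 7.66 and 8.47 CPM with dox in the myoblast-enriched fraction, without overlap, and did not pass (-1.40 ± 0.381, adjusted p = 0.0858). DESeq2 called it (-1.40, adjusted p = 0.00425), as did edgeR without the no dox replicate 2 (-1.69, adjusted p = 0.00879). With the replicate number as a block, an alternative in which same-numbered libraries are paired, its change was -0.99 (adjusted p = 0.00687), under the 2-fold limit. In the myotube-enriched fraction it was at 23.8, 3.71 and 14.5 CPM and 11.4, 9.64 and 7.27 CPM (-0.54 ± 0.597, adjusted p = 0.998). Fos was at 6.003, 5.46 and 10.2 CPM without and 9.87 and 17.96 CPM with dox in the myoblast-enriched fraction (0.96 ± 0.346, adjusted p = 0.161), with overlap. In the myotube-enriched fraction the dox replicate 1 stood apart from the other 2, with Egr3 at 0.768 CPM against 10.1 and 9.40 CPM and Jund at 412 CPM against 191 and 193 CPM. A difference of dox effects between the fractions was found for 0 members (against 0% of 15008 genes, of which 217 had an unadjusted p under 0.05 by edgeR).

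Against the whole cultures without dox, 5 members were higher in the myoblast-enriched fraction (where 29.3% of 13854 genes were called) and 6 in the myotube-enriched fraction (where 21.4% of 13958 were). Jun was at 200.4, 155 and 196 CPM and 174, 106 and 175 CPM in the 2 fractions and at 68.6, 57.5 and 47.2 CPM in the whole cultures. The changes were 1.63 ± 0.171, adjusted p = 5.98e-05 in the myoblast-enriched and 1.40 ± 0.224, adjusted p = 0.00178 in the myotube-enriched fraction (1.36 and 1.09 with the GC offset). Egr1 was at 301, 155 and 373 CPM and 304, 159.5 and 275 CPM in the fractions and 138, 122 and 101 CPM in whole cultures (1.17 ± 0.277, adjusted p = 0.00536 and 1.04 ± 0.241, adjusted p = 0.00918, 1.07 and 0.90 with the offset). Both Egr1 calls sat near the 2-fold limit, and were lost without the myoblast-enriched replicate 3 (0.90), the myotube-enriched replicate 1 (0.86) or 3 (0.97), or the whole culture replicate 3 (0.92, in the myotube-enriched comparison). Fosl1 (3.64 ± 0.391 and 3.06 ± 0.607, 2.93 and 2.36 with the offset) and Junb (3.995 ± 0.470 and 3.53 ± 0.534, 2.62 and 2.19 with the offset) were called in both fits. Jund was higher by 3.52 ± 0.145 and 3.32 ± 0.199, but only by 0.85 and 0.78 with the offset. Fosb was called in the myotube-enriched fraction (1.40 ± 0.417, adjusted p = 0.0254, 1.08 with the offset), a call lost without the myotube-enriched replicate 1 or the whole culture replicate 2 or 3 (adjusted p from 0.0776 to 0.0916). In the myoblast-enriched fraction the change of Fosb was 1.05 ± 0.430, adjusted p = 0.0594 (0.75 with the offset), and passed with the replicate block (1.08, adjusted p = 0.0499) and without the whole culture replicate 1 (1.43, adjusted p = 0.0286). The change of Egr3 did not pass in the myoblast-enriched fraction (-0.11 ± 0.393, adjusted p = 0.834), but was -1.56 (adjusted p = 0.00379) with the offset. Fosl2 went the other way, at -0.73 ± 0.137, adjusted p = 0.00146 and -0.77 ± 0.245, adjusted p = 0.0336 (-0.80 and -0.87 with the offset), within 2-fold. In the myotube-enriched comparison Fosl2 was called without the myotube-enriched replicate 1 (-1.01, adjusted p = 0.0150). There Fos was called without the whole culture replicate 1 (1.15, adjusted p = 0.03455), and Egr3 without the myotube-enriched replicate 2 (1.06, adjusted p = 0.0386). The fractions had been trypsinized and the whole cultures not. Of 10 heat-shock genes, known to respond to stress, 2 were higher and 1 lower in the myoblast-enriched and 3 higher in the myotube-enriched fraction. These counts are near the shares of all genes called, 29.3% and 21.4%. Of the list, Hspa1b went from 4.55 to 30.8 CPM (2.73 ± 0.208, adjusted p = 1.34e-05) in the myoblast-enriched fraction, or by 2.09 with the offset. With the offset, 1 of the 10 was higher and 0 lower in each fraction, where 25.2% and 17.5% of all genes were called. Without dox, proliferation markers summed to 316 to 885 CPM in the myoblast-enriched fraction, 103 to 499 in the myotube-enriched fraction and 183 to 215 in whole cultures. Myotube markers were at 6350 to 10360, 13490 to 23130 and 10870 to 15400 CPM in that order. The parts of handling and of these marker shifts were not tested.

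The lines with inducible Cdh23 and Mcam were compared next, at 48 h. Without dox, 0 of 10 members were called between them, against 0.35% of 13700 genes, although all 10 had a lower fitted value in the iCdh23 line (median -0.44, all genes 0.0069). Jun, the partner that gives AP-1 much of its activity, had the lowest fitted change of the members in iCdh23, followed by Fosl1, while Fosl1, Egr2 and Egr3 had lower ones than Jun in iMcam. In the iCdh23 line it was at 212, 191 and 150.3 CPM without and 37.5, 29.7 and 38.8 CPM with dox (-2.38 ± 0.170, adjusted p = 2.35e-05, 5.22-fold lower). In the iMcam line it was at 222, 219 and 162 CPM and 82.3, 90.04 and 91.2 CPM (-1.16 ± 0.136, adjusted p = 0.000651, 2.23-fold lower). In the iMyoD1 line at the same time it was at 169, 167 and 180.0 CPM and 162, 153 and 152 CPM (-0.16 ± 0.0629, adjusted p = 0.0529). The groups were apart in all 3 lines. The difference of dox effects on Jun was -1.21 ± 0.221, adjusted p = 0.00595 for iCdh23 minus iMcam, -2.21 ± 0.183, adjusted p = 2.01e-06 for iCdh23 minus iMyoD1 and -1.005 ± 0.155, adjusted p = 0.00401 for iMcam minus iMyoD1. Each of these stood with any 1 of the 12 libraries left out.

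Fosl1 fell in both adhesion lines, from 23.1, 14.03 and 17.4 CPM to 4.84, 2.65 and 3.25 CPM in iCdh23 (-2.35 ± 0.279, adjusted p = 0.000246) and from 22.01, 20.4 and 25.2 CPM to 6.02, 6.27 and 4.97 CPM in iMcam (-1.93 ± 0.141, adjusted p = 0.000164), as in iMyoD1 at 48 h. Its dox effects were not shown to differ between the lines (-0.40 ± 0.326, adjusted p = 0.502 between iCdh23 and iMcam, -0.78 ± 0.2996, adjusted p = 0.0606 between iCdh23 and iMyoD1, -0.37 ± 0.169, adjusted p = 0.204 between iMcam and iMyoD1). The difference between iCdh23 and iMyoD1 passed with the GC offset (-0.77, adjusted p = 0.0373), with the replicate block (-0.77, adjusted p = 0.0423) and with no low-count filter (-0.82, adjusted p = 0.0360). It passed also without any 1 of 3 libraries, the iCdh23 no dox replicate 2 (-0.94) or 3 (-0.82) and dox replicate 1 (-1.07). Fos was higher with dox in the iCdh23 line, at 11.01, 10.6 and 10.1 CPM against 4.30, 3.35 and 4.81 CPM (1.34 ± 0.169, adjusted p = 0.000329). In iMcam it was at 6.20, 5.64 and 12.3 CPM without and 6.07, 7.39 and 8.43 CPM with dox (-0.11 ± 0.302, adjusted p = 0.778). The effects differed by 1.48 ± 0.376, adjusted p = 0.0279, a difference that held in 6 of 12 fits that each left out 1 library. Against iMyoD1 the iCdh23 effect on Fos differed by 1.38 ± 0.227, adjusted p = 0.000467, in 12 of 12 such fits.

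Junb was lower with dox in iMcam, with 453, 479.8 and 620.1 CPM and 216, 239.7 and 232 CPM (-1.14 ± 0.129, adjusted p = 0.000577, and -0.998 without the no dox replicate 3). It was lower by less than 2-fold in iCdh23, with 486, 532 and 481 CPM and 393, 358 and 308 CPM (-0.50 ± 0.113, adjusted p = 0.00577). Egr2 was lower in iMcam, with 12.3, 14.7 and 30.6 CPM and 4.55, 5.45 and 7.74 CPM (-1.66 ± 0.363, adjusted p = 0.00756). It did not pass in iCdh23, with 7.88, 9.90 and 16.9 CPM and 8.34, 8.64 and 6.17 CPM (-0.59 ± 0.288, adjusted p = 0.109). The difference between the lines did not pass either (1.10 ± 0.513, adjusted p = 0.213). Egr3 was lower in both, with 6.69, 9.71 and 15.7 CPM and 5.13, 4.40 and 4.24 CPM in iCdh23 (-1.23 ± 0.303, adjusted p = 0.00889, and -0.84 without the no dox replicate 3) and 9.60, 16.8 and 24.04 CPM and 4.46, 7.29 and 8.47 CPM in iMcam (-1.28 ± 0.351, adjusted p = 0.0191). The Egr3 call in iMcam was lost without the no dox replicate 3 (-0.94) and without the dox replicate 1 (adjusted p = 0.0589) or 2 (adjusted p = 0.0524). Egr1, Fosb, Fosl2 and Jund did not pass in either line, with fitted changes between -0.16 and 0.34 and adjusted p of at least 0.148.

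In all, 4 members were called with dox in iCdh23 (1 higher, 3 lower), where 30% of 14227 genes tested were called, and 5 in iMcam (each lower), where 16.8% of 13731 were. The adjusted p alone was passed by 5 members in each line, and by 63.8% and 49% of all genes. The dox effects differed in 3 members between iCdh23 and iMcam (Fos, Jun and Junb), where 10.6% of 14552 genes passed. They differed in 5 between iCdh23 and iMyoD1 (Fos, Fosl2, Jun, Junb and Jund), where 35.7% of 14825 did, and in 2 between iMcam and iMyoD1 (Fosl2 and Jun), where 6.41% of 14488 did. These 3 contrasts share libraries. The differences in Junb between iCdh23 and iMcam (0.66 ± 0.182, adjusted p = 0.0403) and in Fosl2 (0.46 ± 0.142, adjusted p = 0.0239 and 0.50 ± 0.125, adjusted p = 0.0330) held in only 2, 3 and 3 of 12 fits that each left out 1 library, and that in Junb did not pass with the GC offset (0.54, adjusted p = 0.149). With dox, proliferation markers summed to between 11.3 and 24.2 CPM in iCdh23, against 550 to 851 CPM without, and to between 47.1 and 98.7 CPM in iMcam, against 530 to 666 CPM. Myotube markers summed to between 36.9 and 132 CPM with dox in iCdh23, against 5455 to 9298 CPM without, and to between 504 and 1559 CPM in iMcam, against 4015 to 9833 CPM. Myoblast markers were lower with dox too, at 384 to 457 CPM in iCdh23, against 2320 to 2925 CPM without, and at 607 to 930 CPM in iMcam, against 1854 to 3014 CPM. Myod1, one of them, changed by -2.59 (adjusted p = 0.000156) in iCdh23 and by -1.63 (adjusted p = 0.000626) in iMcam. The members' changes stand beside these wider ones, and the part of one in the other was not tested.

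Genes around the members were taken from lists chosen for their known relations to them. Of 17 genes known as AP-1 targets, 12 to 15 were tested in each comparison with dox. In iCdh23, 10 of 15 were lower and 3 higher (median -1.51), and in iMcam 10 of 13 were lower and 1 higher (median -1.47), where 30% and 16.8% of all genes tested were called. Spp1, which encodes the matrix protein osteopontin, went from 1118 to 45.8 CPM in iCdh23 (-4.61 ± 0.187, adjusted p = 5.72e-06). In the iMyoD1 line 3 of 13 were lower and 1 higher at 0 h, 6 of 12 lower and 1 higher at 24 h, 5 of 12 lower at 48 h and 6 of 12 lower at 120 h (medians -0.23, -0.86, -0.72 and -1.02), beside 4.27%, 13.2%, 14.4% and 16.1% of all genes. With the GC offset, 6 of 12 were lower at 120 h (median -0.97). At 24 h, Ptgs2, the inducible cyclooxygenase, went from 258 to 24.8 CPM (-3.39 ± 0.0875, adjusted p = 1.07e-10). At 0 h, Ccnd1, the cyclin D1 gene that drives entry into the cell cycle, went from 296 to 123 CPM (-1.26 ± 0.0595, adjusted p = 4.56e-09). Il11, a cytokine gene, was higher with dox at 24 h (2.01 ± 0.290) and in both adhesion lines (2.39 ± 0.324 and 1.66 ± 0.399). Mmp3, a matrix metalloproteinase, had at most 1 count in any iCdh23 library without dox and stood at 1.88 CPM with dox, and Il6 had at most 3 counts in any iMcam library with dox. The medians of all genes tested were -0.0025 in iCdh23 and 0.02 in iMcam. In the fractions, 4 of 13 targets were lower in the myoblast-enriched and 0 of 13 in the myotube-enriched one, where 3.03% and 0% of all genes were called.

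Of 37 other immediate-early genes, 34 to 36 were tested in each comparison. With dox, 1 was higher and 1 lower of 35 tested at 0 h, 2 higher and 8 lower of 34 at 24 h, 11 lower of 35 at 48 h, 19 lower of 35 at 120 h, 1 higher and 18 lower of 35 in iCdh23 and 14 lower of 35 in iMcam. Their median log2 fold changes were -0.27, -0.30, -0.74, -1.14, -1.13 and -0.74 in that order, and the shares of all genes called were 4.27%, 13.2%, 14.4%, 16.1%, 30% and 16.8%. With the GC offset, 17 of 35 were lower at 120 h (median -0.91, with 16.2% of all genes called). In the fractions, 4 of 35 were lower in the myoblast-enriched (3.03% of all genes called) and 0 of 35 in the myotube-enriched one (0%). Ccn2, a serum- and YAP-responsive matricellular gene, went from 43.6 to 11.4 CPM at 48 h (-1.94 ± 0.0921, adjusted p = 7e-08) and from 15.97 to 1.71 CPM in iCdh23 (-3.23 ± 0.329, adjusted p = 0.000118). Myc, a growth regulator, went from 145 to 8.81 CPM at 24 h (-4.07 ± 0.0734, adjusted p = 7.29e-12). Over time without dox, 7 of 36 were higher and 18 lower at 24 h than at 0 h, and 16 of 35 higher and 5 lower at 48 h than at 24 h, against 26.1% and 30.4% of all genes called in these steps. Atf3, a stress-responsive factor that can pair with Jun, rose from 0.572 to 80.2 CPM between 0 and 24 h (7.13 ± 0.121, adjusted p = 3.87e-14) while Fos and the Egr genes fell.

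**Figure D5:**
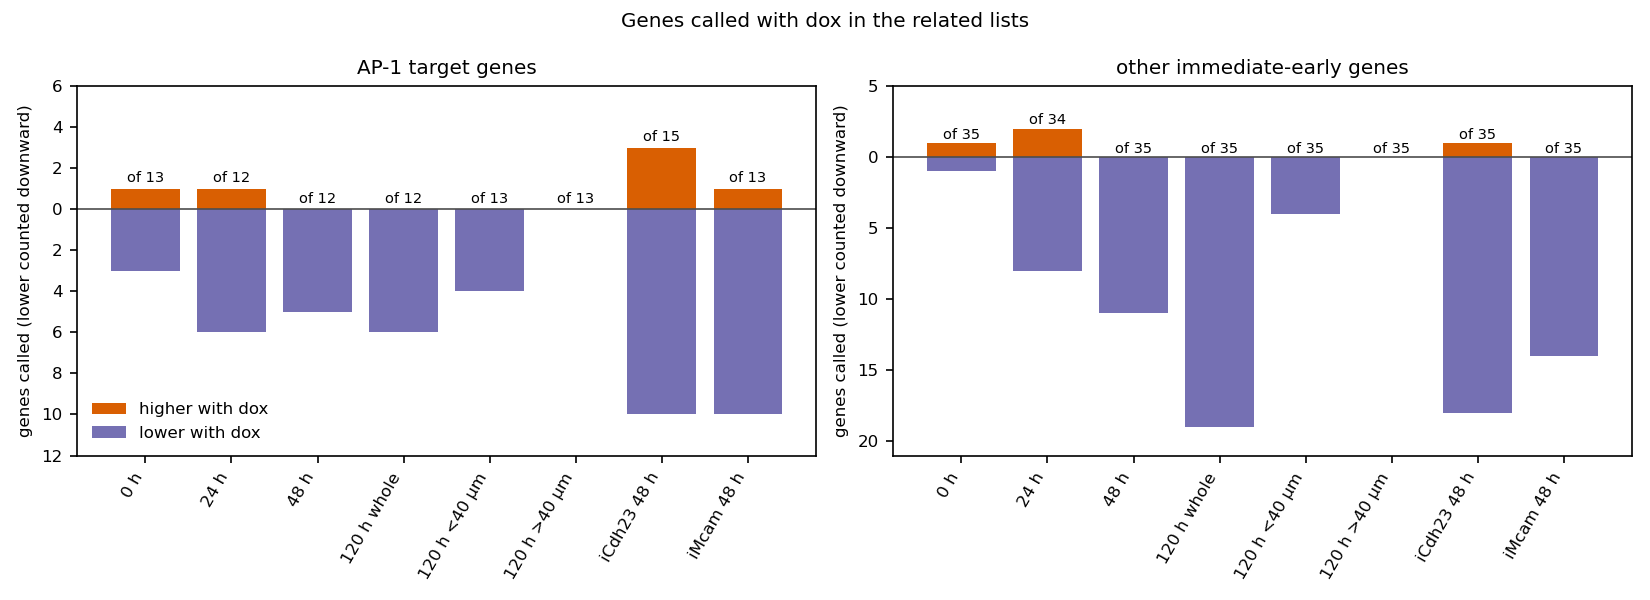
Number of genes called with dox in 2 related lists, higher (orange, upward) and lower (purple, counted downward), in the 8 comparisons, with the number of list genes tested above each bar. Lower calls outnumber higher ones wherever any were made except for the other immediate-early genes at 0 h, with 1 each, and 10 of 15 AP-1 targets are lower in iCdh23.

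Of 19 upstream factors (Srf and its partners, Creb1, and kinases of the MAPK cascades), 0 were called with dox in the iMyoD1 and iMcam lines and 1 in iCdh23, Braf, from 40.1 to 96.7 CPM (1.27 ± 0.140, adjusted p = 0.000176), where 4.27% to 30% of all genes were called in these comparisons outside the fractions. At the adjusted p alone 5 were higher and 2 lower at 0 h, 9 and 2 at 24 h, 9 and 2 at 48 h, 8 and 0 at 120 h, 10 and 2 in iCdh23 and 8 and 2 in iMcam, each within 2-fold except Braf, beside 37.8%, 62.8%, 56.6%, 45.2%, 63.8% and 49% of all genes. Between 0 and 24 h without dox, 1 was lower, Elk3, a partner of Srf (-1.68 ± 0.0629, adjusted p = 2.16e-11), where 26.1% of all genes were called. Of 11 AP-1 partners and relatives, 7 or 8 were tested with dox, of which none was called at 0 or 24 h, 1 was lower at 48 h, 3 at 120 h (2 with the GC offset), 4 in iCdh23 and 2 in iMcam, and none was higher. Their medians were -0.10, -0.50, -0.057, -0.82, -1.02 and -0.20 in that order. The shares of all genes called were 4.27%, 13.2%, 14.4%, 16.1%, 30% and 16.8%. At the adjusted p alone, 0 partners and relatives were higher and 3 lower at 0 h, 0 and 6 at 24 h, and 2 and 2 at 48 h. At 120 h 1 was higher and 5 lower, in iCdh23 3 and 5, and in iMcam 2 and 4. Of all genes, 37.8%, 62.8%, 56.6%, 45.2%, 63.8% and 49% passed the adjusted p alone in these comparisons. Atf4 of this list, the factor of the integrated stress response, was lower with dox at 48 h (-1.56 ± 0.0749), at 120 h (-1.93 ± 0.0835, -1.85 with the GC offset), in iCdh23 (-2.22 ± 0.412) and in iMcam (-1.22 ± 0.192), each with an adjusted p of at most 0.00228. Nab1 and Nab2, corepressors of Egr proteins, were called in no comparison with dox, though both were higher at the adjusted p alone at 24 h, and Nab2 was lower at 24 h than at 0 h without dox (-1.41 ± 0.0649, adjusted p = 1.86e-10).

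Likeness of pattern was measured as Pearson's r of group mean log2(CPM + 1) over the 16 groups, among 12083 other genes with at least 5 CPM in some group. It is a description, since groups share lines, depth, batch and, in the 2 groups of whole cultures at 120 h, base composition. The value without those 2 groups, over 14 groups, is an alternative chosen after seeing the data. For Fos, Fosl2, Jun and the Egr genes, each r was at least 0.826 over the 14 groups, though the order of the nearest genes changed. Fos was most like Egr1 (r = 0.954), then Cyb5r3 (0.916) and Plpp3 (0.901). Egr1 was most like Col6a1 (0.954), Fos and Cyb5r3 (0.948), Egr2 like Zfp36l1 (0.945), Col4a2 (0.938) and Olfml2b (0.929), and Egr3 like St6galnac4 (0.926), Adamts7 (0.920) and Egr2 (0.917). Jun was most like Loxl1 (0.974), Gadd45g (0.943) and Crip2 (0.939), Junb like Ier2 (0.959), Map1s (0.959) and Csnk1g2 (0.948), and Jund like Akt1s1 (0.986), Tpgs1 (0.980) and Scand1 (0.977). Over the 14 groups those of Junb were 0.778, 0.577 and 0.466 (ranks 273, 1674 and 2416) and those of Jund 0.877, 0.684 and 0.661 (ranks 2, 267 and 332). Most of these likenesses thus rest on the whole cultures at 120 h. Gadd45g and Crip2 were then at ranks 89 and 75 for Jun, and the genes named for Egr3 at 14, 18 and 12. Fosl1 was most like Foxc1 (0.916), Fancf (0.915) and Nr2f1 (0.903), which were at 0.823, 0.816 and 0.790 (ranks 68, 73 and 123) over the 14 groups. Fosl2 was most like Bicral (0.870), Zbtb10 (0.848) and Adamts1 (0.815). Fosb stayed below 5 CPM in every group and was not ranked. Among the 36 pairs of members ranked, r ran from -0.27 (Fosl2 with Jund) to 0.954 (Fos with Egr1). The highest after that were Egr2 with Egr3 (0.917), Junb with Jund (0.885) and Egr1 with Egr2 (0.867), and the lowest after Fosl2 with Jund were Jund with Egr2 (-0.18) and Fos with Fosl1 (-0.13). Over the 14 groups Junb with Jund was at -0.079 and Fosl2 with Jund at 0.021, while Fos with Egr1 was at 0.957 and Egr2 with Egr3 at 0.932.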

How the data were processed

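RNA was measured in 47 polyA libraries. Per the labels, the processing used Salmon on mm10. The authors deposited estimated counts per transcript in 3 tables of 12, 23 and 12 libraries, each of 109617 transcripts, of which 30.97% to 34.36% of values were not whole. Of these transcripts 98.7% matched GENCODE vM21, and their values were added up over the transcripts of a symbol, then rounded. No per-sample column was left unused (0). CPM used TMM factors over all libraries, and TPM the vM21 transcript lengths.

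Comparisons were fitted across all genes with edgeR 4.0.16 (R 4.3.3, limma 3.58.1) by the quasi-likelihood test on the groups compared, after filterByExpr and TMM, with Benjamini-Hochberg adjustment and two-sided p. A gene was called at an adjusted p under 0.05 and over 2-fold, and an interaction at the adjusted p alone. The standard error is the size of the log2 fold change divided by the square root of F. Alternatives were RLE normalization, no low-count filter, the replicate number as a block, DESeq2 1.42.0, leaving out each library, the adjusted p alone and, added after seeing the data, a GC offset. The fit was tested on simulated data with 200 changed genes each. edgeR found 200 of them for dox at 0 h (8 false calls among 13370 genes) and 199 in the myoblast-enriched fraction (17 among 14019). It found 200 in iMcam (6 among 13557) and 200 for the difference between 24 h and 0 h (17 among 14142). These numbers are not split by size of change or by level. They therefore do not show how well changes near 2-fold, or in genes with few counts, are found. Python 3.11.15 with pandas 2.3.3, numpy 2.4.6, scipy 1.17.1 and matplotlib 3.10.9 made the other tables and figures.

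Named genes were the 10 members, for each member with at least 5 CPM in a group the 3 genes of most similar pattern, and, of the lists, genes among the 2 with the largest changes in each direction among those called in a comparison. Mmp3 and Il6 are given by counts, being at 3 counts or fewer in every library of a group. Members and lists were chosen with earlier results of these data known. Libraries of a group are biological replicates per the labels, which do not say what a replicate was (a culture, passage or day), and p-values measure the spread between them. No 2 of them agreed within sampling noise. Same-numbered libraries deviated together, with every correlation of deviations over 0.1, for dox in iMcam (0.362, 0.227 and 0.419) and between the fractions without dox (0.413, 0.117 and 0.189), and likewise for the 2 pairs of dox in the myoblast-enriched fraction (0.432 and 0.300). Per the study's methods, both fractions came from the same strained cultures, so same-numbered fractions may be tied by design, though the labels do not say what the number marks. Elsewhere the pairing comes from the correlations alone. Total counts set the precision, and Egr2, Egr3, Fos and Fosb rested on the fewest counts.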

Additional observations from a re-analysis of the deposited data

Results flagged for a closer look

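In 18 cases a member's dox effect differed between 2 times or 2 lines by an interaction test (edgeR's quasi-likelihood test, an adjusted p under 0.05 over all genes tested), and each difference is given here as a log2 value. The number of fits that kept the call is over the 12 that each left out 1 library.

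Between 24 h and 0 h in the iMyoD1 line, the effect was higher at 24 h for Egr3 by 2.06, Egr2 by 1.94, Fosb by 1.01, Egr1 by 0.83 and Jun by 0.37. For Fosl2 the difference was -1.33, for Fosl1 -1.01 and for Jund -0.50. Each was kept in 12 of 12 fits except that of Fosb, kept in 5.

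Between iCdh23 and iMcam, the difference was 1.48 for Fos (kept in 6 of 12 fits), -1.21 for Jun (12 of 12) and 0.66 for Junb (2 of 12). Between iCdh23 and iMyoD1 at 48 h it was -2.21 for Jun, 1.38 for Fos and 0.54 for Junb, each kept in 12 of 12 fits, and 0.46 for Fosl2 (3 of 12) and -0.43 for Jund (6 of 12). Between iMcam and iMyoD1 at 48 h it was -1.005 for Jun (12 of 12) and 0.50 for Fosl2 (3 of 12). These line contrasts share libraries.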

How the results depend on the processing

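Of 240 log2 fold changes of the members, 240 kept their direction and their side of the threshold under RLE normalization, 239 under DESeq2, 237 under the replicate block, 235 with no low-count filter and 230 with the GC offset. With the GC offset, Egr3 between 48 and 120 h turned to 0.31 without dox (adjusted p = 0.0509) and to 1.40 with dox (adjusted p = 0.000667). The adjusted p alone raised the members called with dox to 6 at 0 h, 7 at 24 h and 6 in whole cultures at 120 h, those between 0 and 24 h to 10 without and 9 with dox, those between 24 and 48 h with dox to 10, and those between 48 and 120 h with dox to 8. The shares of all genes passing it were 37.8%, 62.8% and 45.2%, 74.3% and 68%, 72.4% and 73.5% in that order. In the myoblast-enriched fraction, dox called 1 member, Fosl1, under DESeq2 and with no low-count filter; that filter setting left 1 member that differed between iMcam and iMyoD1. Leaving out 1 library gave 2 to 5 members called with dox in whole cultures at 120 h, 0 to 1 in the myoblast-enriched fraction, 3 to 5 in iMcam, and 1 to 3, 3 to 7 and 1 to 2 that differed between iCdh23 and iMcam, iCdh23 and iMyoD1, and iMcam and iMyoD1. The causes were not tested. Shares in a family moved beyond 1 SD in 119 of 160 cases with plain counts, which do not allow for length. Group mean CPM moved in 46 of 160 cases with library totals in place of TMM factors. Jund in iCdh23, for one, was at 216 CPM without and 193 with dox under TMM, but at 210 and 236 under library totals.

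With the replicate number as a block, no count of members called moved by over 1.5 times, and 3 single calls changed: Fosb in the myoblast-enriched fraction against whole cultures (1.08, adjusted p = 0.0499) and Fosl1 between iCdh23 and iMyoD1 (-0.77, adjusted p = 0.0423) passed, and Egr1 in the myotube-enriched fraction against whole cultures (1.00, just under 2-fold) did not.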

Other observations

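Over the time course, AP-1 target genes were counted without reference to dox. Between 0 and 24 h without dox, 8 of 12 tested were lower and 2 higher (median log2 fold change -1.62, all genes 0.014), and between 24 and 48 h 7 of 12 were higher and 3 lower (median 1.52, all genes -0.021), where 26.1% and 30.4% of all genes tested were called. With dox the counts were 9 of 13 lower and 2 higher, and 6 of 12 higher and 3 lower, where 16.8% and 28.8% of all genes were called. Between 48 and 120 h, 1 of 12 was higher and 3 lower without dox (median 0.065), and 3 higher and 2 lower with dox (median -0.13). There 29.8% and 36.4% of all genes were called. With the GC offset, 1 was higher and 3 lower without dox, and 1 higher and 4 lower with dox, where 24.2% and 24.5% of all genes were called. Atf4, the factor of the integrated stress response, went from 214 to 1100.0 CPM between 0 and 24 h without dox (2.40 ± 0.0620, adjusted p = 8.52e-13 by edgeR). Of 10 heat-shock genes, 4 were higher and 0 lower over the same step (median 0.81), with 26.1% of all genes called. The step from 24 to 48 h crosses the batch label.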
